A study of Mus musculus with 24 samples.

Results

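The difference between the models in the response of pancreatic stellate cells (PSC) to cancer cells was measured at 72 h, as the co-culture effect in the inverse model minus the co-culture effect in the standard model. An effect is the mean log2(FPKM + 0.5) of the co-cultured PSC minus that of the mono-cultured control PSC of the same model, where FPKM is fragments per kilobase of transcript, scaled to the fragments counted in the library. A difference below 0 is therefore an effect that lay lower in the inverse model, and a difference above 0 one that lay higher. The values come from 12 of 24 libraries, which are all libraries of 72 h, in 4 groups of 3. Mouse gene symbols are written in capitals.

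PSC are the resident mesenchymal cells of the pancreas that store vitamin A and fat in lipid droplets while quiescent. When they are activated they lose the droplets, take on a contractile, matrix-producing state and become a source of cancer-associated fibroblasts. Tumour cells act on them through secreted ligands, and the stroma that results is rich in collagens, fibronectin and proteoglycans such as versican.

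All PSC came from pooled pancreata of wild-type C57BL/6J mice aged 7 to 10 weeks and were used at low passage. The cancer cells were a single line, KPC, derived from a genetically engineered mouse that develops pancreatic cancer. In standard co-culture KPC cells grew on the floor of the well and PSC on a hanging membrane with 1 µm pores, and in inverse co-culture KPC cells grew on the underside of the membrane that carried the PSC. PSC kept alone in the same device were the control of each model. KPC cells were already on the membrane when PSC were seeded in the inverse model, so that the time the cell types spent together reached 96 h, against 72 h at most with the standard device. Libraries were made from 120 ng of RNA in the inverse model and from 450 ng in the standard model. Standard PSC and their controls attached in a different medium, which was changed to the co-culture medium when the time count began. Inverse PSC and their controls were in the co-culture medium from seeding, without a change. Distance between the cells, time together, medium and RNA input cannot be told apart in the difference. Each co-culture has a control with its own RNA input and medium.

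The 12 libraries held 17416083 to 23874545 counted fragments, and 12552 to 13307 genes had an FPKM above 1. Stellate and fibroblast markers summed to between 21940 and 39550 FPKM in every library, although LRAT, the enzyme that stores vitamin A, was at 0 in the 6 inverse libraries. The epithelial markers EPCAM and OCLN were at 0 in all 12 libraries, but others were not. The 13 epithelial markers summed to between 4.77 and 11.1 FPKM in inverse co-cultures and to between 2.50 and 6.94 in inverse controls. In the standard model they summed to between 2.01 and 4.39 FPKM in co-cultures and to between 3.42 and 4.91 in controls. The members behind the higher inverse sums are given with KRT19 below. Macrophage markers summed to between 62.6 and 94.5 FPKM in the inverse co-cultures and to between 146 and 291 in the inverse controls, so that they moved with the inverse effect. In the standard model the sums ran from 95.2 to 921 FPKM in co-cultures and from 44.1 to 1593 in controls. The part of cells of another type in the results below was not tested. In these bulk libraries fewer cells of a type and less RNA per cell cannot be told apart.

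The control library numbered 1 of the standard model stood apart from the other controls. Its mean log2 level over 37 lipid genes was 3.22, against 5.455 and 5.496 in the other standard controls. Its mean log2 level over 50 genes of DNA replication and mitosis was 4.48, against 2.60 and 2.43. The standard co-culture numbered 1 deviated in the same direction for DNA replication, at 4.01 against 3.12 and 2.78, and for lipid genes, at 3.94 against 4.57 and 5.37. Differences below are therefore also given without that control.

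Whether any gene passed the test of the difference between the models depended on a replicate block, that is, on the replicate number as a term of the fit. Without a block, 0 of 13775 tested genes (0%) had an adjusted p under 0.05 in limma, and the smallest adjusted p was 0.220. With a block in each model 16 genes (0.116%) passed, and with a block in the standard model alone, chosen after seeing the data, 17 genes (0.123%), all with a difference below 0. Replicate numbers paired the libraries of the standard model and not those of the inverse model. Where a pair of values with a block is given below, the first is for the block in each model and the second for the block in the standard model alone. All other values are without a block. At an unadjusted p under 0.05 there were 474 genes, 3.44% of those tested, of which 369 (2.68%) had a difference below 0 and 105 (0.762%) a difference above 0. limma's voom on fragment counts recovered from the FPKM values, also without a block, gave 0 genes, with 434 at an unadjusted p under 0.05. The count was 0 again without the standard control numbered 1, with 341 genes at an unadjusted p under 0.05.

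The effects themselves were called far more often in the inverse model. There 924 genes (6.71%) had an adjusted p under 0.05 in limma, 204 of them risen (1.48%) and 720 fallen (5.23%) in co-culture. In the standard model 35 genes (0.254%) passed, 19 risen (0.138%) and 16 fallen (0.116%). A block gave 2696 (19.6%) and 2804 (20.4%) genes in the inverse and 302 (2.19%) and 315 (2.29%) in the standard model. The errors come from a common fit of both models and both times, so a block in the standard model alone also changes the inverse counts. The block covered the 24 h libraries too, where pairing was not checked. The standard count without a block was 12 when the standard control numbered 1 was left out and 4 without both standard libraries numbered 1. The split in the inverse model depended on the scaling between libraries, since the median effect over all genes was −0.16 as deposited and near 0 once libraries were scaled by their median gene ratio, which gave 376 risen and 299 fallen genes. Quantile normalization gave 378 risen and 350 fallen genes. A gene that passed in one model and not in the other is not thereby shown to differ between them, and the test of the difference gave the 0, 16 and 17 genes above.

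Most effects had the same sign in both models. All 35 genes called in the standard model had an inverse effect of the same sign, and 32 of them were called there too. The exceptions were TTLL1, HGF and MAML2, which are named because the count is small. Among these 35 genes the median size of the effect was 1.03 in the inverse and 1.08 in the standard model. Of the 924 genes called in the inverse model 895 (96.9%) had the same sign in the standard model, against 73.4% of all tested genes, and 882 had the larger effect in the inverse model, where they were chosen. Across the 13775 genes the effects of the models, which share no library, had a Pearson correlation of 0.51, given as a description because genes are not independent replicates.

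**Figure D1:**
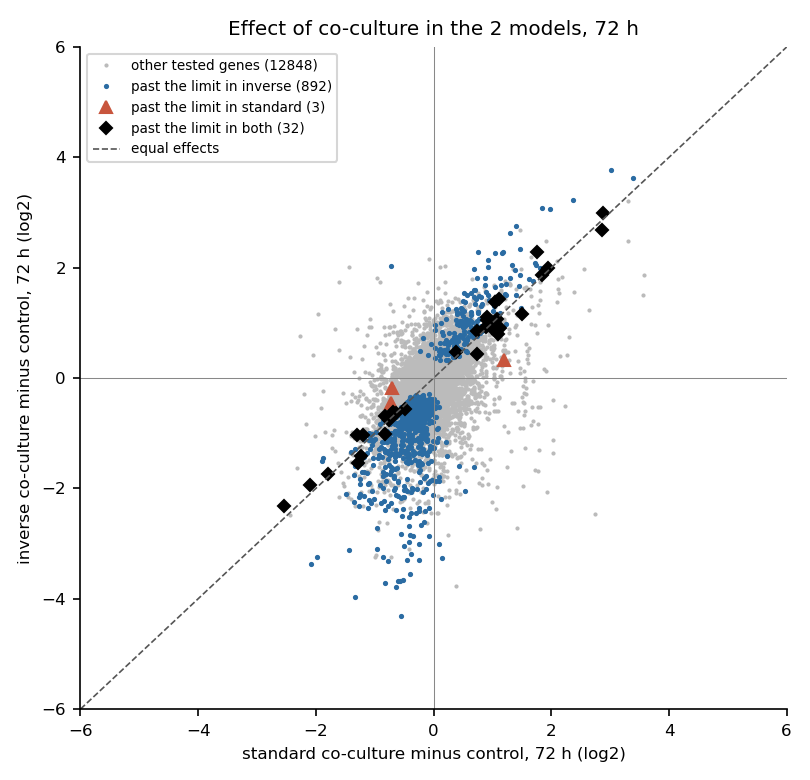
Effect of co-culture at 72 h in the standard model (horizontal axis) and in the inverse model (vertical axis), both in log2, for 13775 genes as points, in the fit without a block. The dashed line marks equal effects, and blue points (892 genes past the limit in the inverse model alone) stretch downwards while black diamonds (32 genes past the limit in both) lie along the line.

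Where the limit of detection lay can be read from the errors. The standard error of a difference had a median of 0.32 (log2) over genes, against 0.23 for a single effect, since 4 group means enter it. The 95% interval of a difference had a median half-width of 0.67, while the median absolute difference was 0.21. The interval included 0 for all but the 474 genes at an unadjusted p under 0.05. The median standard deviation within a group was 0.22 and 0.18 in the inverse co-cultures and controls and 0.20 and 0.28 in the standard co-cultures and controls.

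The control levels moved with the difference. Of the 369 genes at an unadjusted p under 0.05 with a difference below 0, 336 had their highest group mean in the inverse controls and 306 their lowest in the inverse co-cultures. The gap between the controls of the models was larger than the gap between the co-cultures in 250 of them (67.8%), against 53.7% of all tested genes. Without the standard control numbered 1 it was larger in 215 of 368 (58.4%), against 55.4% of all genes, and without both standard libraries numbered 1 in 181 of 362 (50%), against 47%. Of the 105 genes with a difference above 0, 65 were lowest in the inverse controls, 65 were highest in the inverse co-cultures, and in 51 (48.6%) the gap between controls was the larger. These counts describe genes that were chosen on the same libraries. Over all tested genes the median absolute gap between the models was 0.16 for co-cultures and 0.18 for controls.

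CLUH, an RNA-binding protein that handles mRNAs of mitochondrial proteins, had the smallest p of all differences. It lies on chromosome 11 at 74649495 to 74670847 (GRCm38, plus strand). It stood at 53.6, 45.6 and 47.1 FPKM in the inverse controls and at 22.2, 24.0 and 21.4 in the inverse co-cultures. In the standard model it stood at 25.9, 31.9 and 26.0 FPKM in controls and at 23.1, 22.9 and 25.5 in co-cultures. Every inverse control was higher than all other libraries, and the co-cultures of the models overlapped. CLUH fell by 1.10 (log2) in inverse co-culture (limma, adjusted p = 5.89e-05) and its effect in standard co-culture was −0.22 (adjusted p = 0.540). The difference was −0.88 with a standard error of 0.15 (95% interval −1.20 to −0.56, adjusted p = 0.220), and −0.83 without the standard control numbered 1. With a block the adjusted p of the difference was 0.0429 and 0.0299.

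SCARB1, the scavenger receptor that takes up cholesterol esters from high-density lipoprotein, had the same order of groups. Its inverse controls held 79.6, 50.9 and 67.1 FPKM and its inverse co-cultures 21.7, 23.5 and 21.1. The standard controls held 30.4, 34.2 and 35.6 FPKM and the standard co-cultures 22.4, 30.8 and 31.3. Again the 3 inverse controls lay above all other libraries. The difference was −1.28 (95% interval −1.80 to −0.75, adjusted p = 0.327, or 0.0410 and 0.0300 with a block), and −1.21 without the standard control numbered 1.

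The other leading protein-coding genes with a difference below 0 given here were named by smallest p and had an adjusted p of 0.996, and none of them passed with a block. ITGA6, the integrin subunit that binds laminin, had a difference of −2.14 (95% interval −3.31 to −0.97). It stood at 13.7, 11.99 and 16.95 FPKM in inverse controls and at 0.828, 1.39 and 1.49 in inverse co-cultures. The standard model gave 3.61, 9.12 and 5.14 FPKM in controls and at 1.30, 3.37 and 3.87 in co-cultures. ITGA6 thus had lower co-cultured than control levels in both models, without overlap in the inverse model and with overlap in the standard model. It fell by 3.09 in inverse co-culture (adjusted p = 0.000446), and its standard effect was −0.96 (adjusted p = 0.413). LONP2, the Lon protease of peroxisomes, differed by −0.75. SH3PXD2A, a scaffold of podosomes, differed by −0.60. Its same-numbered effects were −0.83, −0.84 and −0.83 in the inverse model and −0.20, −0.29 and −0.21 in the standard model. The rule by which the leading genes were named required this separation, and replicate numbers did not pair the inverse libraries. TMEM120A, a membrane protein, differed by −0.93, LZTS1, a leucine zipper protein, by −1.55, and WDR93, a WD repeat protein, by −2.17. The last 2 of these stayed under 5 FPKM in every library.

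POLD4, the small subunit of DNA polymerase delta, showed the plainest contrast of controls. It stood at 8.32, 8.69 and 7.503 FPKM in inverse controls and between 1.10 and 2.12 in all 9 other libraries. The difference was −2.31 (95% interval −3.69 to −0.93), but at 24 h the same difference was +1.52. POLD4 overlaps AC109138.7 on the same strand and BRSK1 overlaps TMEM150B on the other strand, so the read counts of both are less certain.

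**Figure D2:**
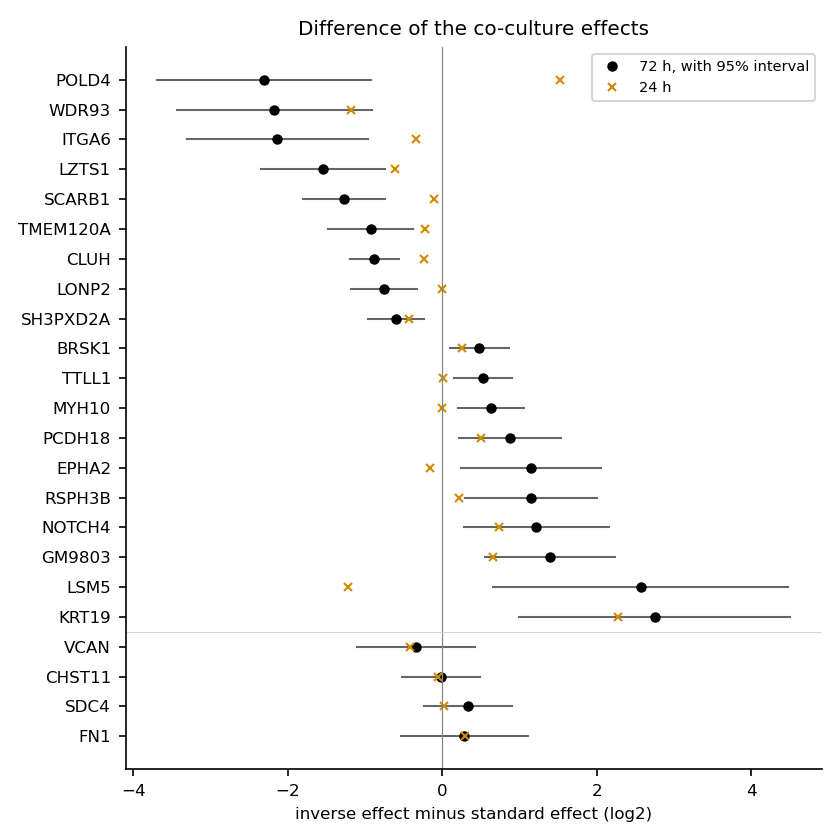
Difference of the co-culture effects (inverse minus standard, log2, horizontal axis) at 72 h with its 95% interval for 19 leading genes and for VCAN, CHST11, SDC4 and FN1, with crosses for the value at 24 h. The intervals of the leading genes miss 0 because these genes were chosen by p, none passed the adjusted limit without a block, and the intervals of the lower 4 genes include 0.

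The genes of lipid droplets and triglycerides had the lowest median of the 21 lists examined. For the counts of signs in this and the other lists, 8131 of all 13775 tested genes had a difference below 0 and 5644 one above 0. Of 41 symbols in the lipid list 40 were present and 37 were tested, and 36 of these had a difference below 0. The median difference was −2.06, against −0.07 over all tested genes, and 23 members (62.2%) had an unadjusted p under 0.05, against 3.44% of all genes. Without a block none passed the adjusted limit. With a block in each model ACSL1, GPAM, DGAT2 and PLIN1 passed for the difference, 4 of 37 (10.8%) against 0.116% of all genes, and with one in the standard model alone PLIN4 and AQP7 passed as well, 6 of 37 (16.2%) against 0.123%. In inverse co-culture 19 members (51.4%) fell and none rose, against 5.23% of all genes fallen, and in standard co-culture none passed, with median effects of −2.13 and −0.13. With a block 32 members fell in inverse co-culture in both fits, against 14.8% and 15.3% of all genes, and none passed in standard co-culture. The median difference was −2.00 and −2.01 under the 2 scalings, each with 36 members below 0.

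The mean log2 level of the list in each library shows the groups behind the difference. The inverse controls lay at 6.15, 5.46 and 6.18 and the inverse co-cultures at 3.89, 4.38 and 3.32. The standard controls lay at 3.22, 5.455 and 5.496 and the standard co-cultures at 3.94, 4.57 and 5.37. The inverse groups did not overlap, the standard groups did, and the standard control numbered 1 was the lowest of all 12 libraries. Without it the median difference was −1.12, and without both standard libraries numbered 1 it was −1.56, with 35 of 37 members still below 0. Which gap between the models was wider depended on that control. With all libraries the median gap between controls was 1.04 and that between co-cultures −0.61, and the gap between controls was the larger in 30 of 37 members. Without it the medians were 0.44 and −0.61, and the gap between controls was the larger in 14 of 37 (37.8%), against 55.4% of all genes. Without both standard libraries numbered 1 they were 0.44 and −0.90, with 7 of 37.

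Adipocyte markers, several of which are also in the lipid list, moved with this difference. Their summed FPKM ranged from 290 to 557 in inverse controls, from 10.8 to 59.5 in inverse co-cultures, from 18.9 to 222 in standard controls and from 29.8 to 193 in standard co-cultures. One of the 8 markers, CIDEA, was at 0 in all inverse libraries. The part of adipocytes or of their precursors in the lipid result was not tested.

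Members of the list acted at each step of fat storage. ACSL1, which activates long-chain fatty acids with coenzyme A, stood at 357, 220 and 341 FPKM in inverse controls and at 21.9, 32.9 and 12.96 in inverse co-cultures. Standard controls held 17.2, 110 and 130 FPKM and standard co-cultures 18.8, 35.9 and 95.4. The standard control numbered 1 was thus at the level of the co-cultures, while the other standard controls were below every inverse control. ACSL1 fell by 3.79 in inverse co-culture (limma, adjusted p = 0.00558). Its difference was −3.16 with a standard error of 1.00 (95% interval −5.26 to −1.06, adjusted p = 0.996, or 0.0417 and 0.0299 with a block), and −2.24 without the standard control numbered 1.

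PLIN4, a coat protein of lipid droplets, stood at 23.5, 12.2 and 20.95 FPKM in inverse controls and at 1.65, 2.99 and 1.02 in inverse co-cultures. Standard controls held 3.91, 7.48 and 8.11 FPKM and standard co-cultures 2.26, 3.87 and 8.45. The standard groups overlapped and the inverse groups did not. The difference of PLIN4 was −2.55 (95% interval −4.17 to −0.94, adjusted p = 0.996, or 0.0520 and 0.0300 with a block), and −2.25 without the standard control numbered 1. MGLL, the lipase that splits monoglycerides, had a difference of −2.39, and GPAM, the first enzyme of glycerolipid synthesis in mitochondria, one of −1.21. AQP7, the channel through which glycerol leaves fat cells, had a difference of −2.85. For the difference GPAM had an adjusted p of 0.00775 and 0.0299 with a block, AQP7 one of 0.0647 and 0.0436 and MGLL one of 0.103 and 0.0761, against 0.996 for each without a block. All of these genes fell in inverse co-culture, with adjusted p between 0.00165 for MGLL and 0.0167 for GPAM. Without the standard control numbered 1 the differences were −2.12 for MGLL, −1.01 for GPAM and −2.06 for AQP7.

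The nuclear receptor PPARG, the master regulator of fat cell genes, and the hormone ADIPOQ (adiponectin) were named after their values were seen. PPARG stood at 63.1, 44.0 and 66.6 FPKM in inverse controls and at 25.2, 26.6 and 10.4 in inverse co-cultures, against 28.7, 51.2 and 45.2 in standard controls and 28.7, 27.5 and 47.8 in standard co-cultures. It fell by 1.55 in inverse co-culture (adjusted p = 0.00826), and its difference was −1.28, or −1.03 without the standard control numbered 1. ADIPOQ stood at 0.734 FPKM in that control and at 65.6 and 64.0 in the others, and its difference moved from −4.15 to −2.24 without it. ADIPOQ missed the limit in inverse co-culture as well (−3.77, adjusted p = 0.0624, or 0.00278 and 0.00167 with a block).

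PPARG binds DNA as a pair with a retinoid receptor at repeats of a half-site, so the promoters of the list were searched for AGGTCA on either strand (TGACCT on the other). The windows are the 250 bases before each RefSeq start on GRCm38.p6, and 26 of the 37 tested members had one. Of the windows of the lipid list 11 of 36 (30.6%) held the half-site. In the sterol synthesis list below 5 of 19 (26.3%) did. The half-site was present in 10.6% of the windows of tested genes, and more often in all windows (4607 of 32851). These are counts of windows and not of genes, and windows of the same gene can overlap. The windows of AQP7 share a match, which therefore entered the lipid count more than once. A match is only a description of the sequence. AQP7 and GPAM are shown as lipid genes with matches in capitals, for a start of AQP7 (chr4:41047963-41048212, minus strand) and one of GPAM (chr19:55099478-55099727, minus strand):
AQP7: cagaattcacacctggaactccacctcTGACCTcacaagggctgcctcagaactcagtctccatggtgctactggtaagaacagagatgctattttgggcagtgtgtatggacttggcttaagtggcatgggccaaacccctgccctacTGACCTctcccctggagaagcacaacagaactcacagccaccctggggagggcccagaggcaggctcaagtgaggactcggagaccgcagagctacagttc
GPAM: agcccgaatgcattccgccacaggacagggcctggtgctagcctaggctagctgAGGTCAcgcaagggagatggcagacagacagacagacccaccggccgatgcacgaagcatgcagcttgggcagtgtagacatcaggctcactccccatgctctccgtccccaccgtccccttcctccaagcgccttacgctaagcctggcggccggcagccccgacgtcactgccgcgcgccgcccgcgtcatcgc
The other window of GPAM and the windows of ACSL1, PLIN4 and MGLL held no such letters.

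**Figure D3:**
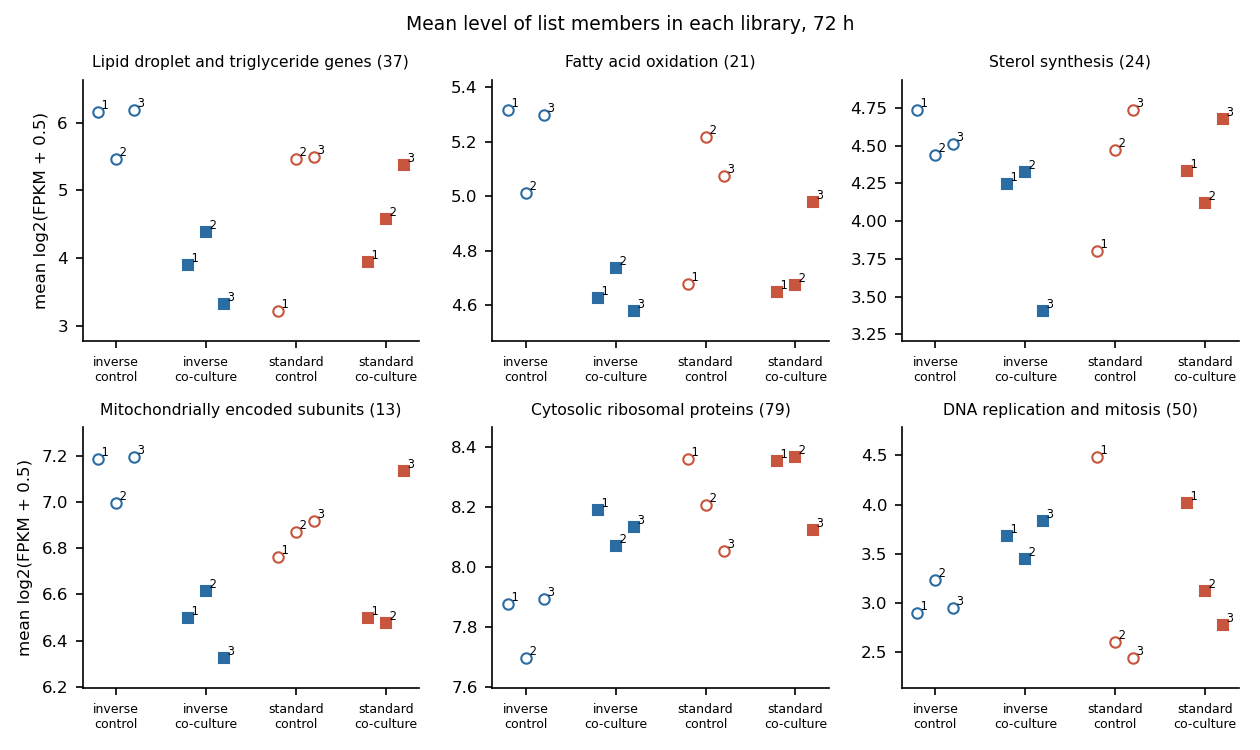
Mean log2(FPKM + 0.5) over the members of 6 gene lists (vertical axis) in each of the 12 libraries of 72 h, by group, with the replicate number beside each point. For lipid genes the inverse controls lie at 5.46 or higher and the inverse co-cultures at 4.38 or lower, and the standard control numbered 1 lies lowest.

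Genes that burn fat had smaller differences of the same sign. Of 21 tested genes of fatty acid oxidation 20 had a difference below 0, with a median of −0.34, and 6 (28.6%) fell in inverse co-culture while none passed in standard co-culture. Of all genes 5.23% fell there, a count that went from 720 to 299 under scaling by median gene ratios. With a block 13 fell in both fits, against 14.8% and 15.3% of all genes. ACADVL, the first enzyme of the mitochondrial oxidation of very long chains, stood at 67.5, 64.2 and 60.5 FPKM in inverse controls and at 45.0, 45.8 and 42.4 in inverse co-cultures. Standard controls held 44.2, 62.2 and 52.4 FPKM and standard co-cultures 46.4, 46.3 and 53.1. The inverse groups were apart and the standard groups overlapped. ACADVL fell by 0.52 in inverse co-culture (adjusted p = 0.0420) and its difference was −0.41 (95% interval −0.85 to 0.03), or −0.29 without the standard control numbered 1. Without that control the median of the list was −0.20, and without the standard co-culture numbered 3 it was −0.21.

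The 13 subunits encoded in the mitochondrial genome had a median difference of −0.50, and 12 were below 0. In inverse co-culture 7 of them (53.8%) fell, against 5.23% of all genes, and none passed in standard co-culture. MT-ND2, a subunit of complex I, fell by 0.71 in inverse co-culture (adjusted p = 0.0231), from 837, 653 and 845 FPKM in controls to 509, 482 and 429. Its standard controls held 674, 781 and 771 FPKM and its standard co-cultures 545, 648 and 855, so that the inverse groups were apart and the standard groups overlapped. The difference of MT-ND2 was −0.57 (95% interval −1.09 to −0.05). In this list the gap lay on the co-cultured side, with medians of −0.34 between co-cultures and 0.18 between controls, and of −0.34 and 0.16 without the standard control numbered 1. The median difference was −0.46 without that control and −0.32, with 11 of 13 below 0, without the standard co-culture numbered 3.

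Sterol synthesis had a median difference of −0.59, with 23 of 24 members below 0. Here too the median gap between co-cultures (−0.39) was wider than that between controls (0.26, or −0.07 without the standard control numbered 1). In inverse co-culture 3 members (12.5%) fell, against 5.23% of all genes, among them HSD17B7 (−1.15, adjusted p = 0.0182) and PMVK, phosphomevalonate kinase (−0.93, adjusted p = 0.0310). With a block 10 (41.7%) and 9 (37.5%) fell, against 14.8% and 15.3% of all genes. HMGCS1, which makes the precursor of mevalonate, stood at 34.0, 39.5 and 20.4 FPKM in inverse co-cultures and at 60.0, 45.5 and 57.3 in inverse controls (adjusted p = 0.119, or 0.0160 and 0.0120 with a block). The inverse co-culture numbered 3 was lowest, as it was for the list as a whole with a mean level of 3.41 against 4.25 and 4.33. The median difference was −0.23 without that co-culture and −0.26 without the standard control numbered 1, so each of these libraries moved it by more than 1.5 times.

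Among the genes with a difference above 0, NOTCH4, a receptor of the Notch family, was a leading gene that also passed in inverse co-culture. It stood at 1.26, 1.99 and 1.68 FPKM in inverse controls and at 9.98, 8.46 and 8.23 in inverse co-cultures. Standard controls held 1.56, 2.61 and 2.77 FPKM and standard co-cultures 4.16, 4.90 and 5.18. Co-cultured levels exceeded the controls without overlap in both models, and those of the inverse model were the highest. NOTCH4 rose by 2.14 in inverse co-culture (adjusted p = 0.00142), with a standard effect of 0.92 (adjusted p = 0.280). The difference was 1.22 (95% interval 0.28 to 2.16, adjusted p = 0.996), and 1.43 without the standard control numbered 1.

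KRT19, a keratin of ductal epithelium, had the highest difference of the leading genes. It stood at 1.83, 1.17 and 3.11 FPKM in inverse co-cultures and at 0.176, 0.116 and 0 in inverse controls, against 0, 0.493 and 0 in standard co-cultures and 2.05, 0.222 and 0.108 in standard controls. All levels were low, and the standard control numbered 1 was within the range of the inverse co-cultures. KRT19 rose in inverse co-culture by 2.03 (adjusted p = 0.0463), and its difference was 2.75 (95% interval 0.99 to 4.51), or 2.10 without that control. The 13 epithelial markers summed to between 4.77 and 11.1 FPKM in inverse co-cultures and to between 2.50 and 6.94 in inverse controls. KRT8, a keratin of simple epithelia, was at 0.919, 0.0880 and 3.14 FPKM in inverse co-cultures, and its partner KRT18 at 0.383, 0 and 1.23. CLDN7, a claudin of tight junctions, was at 0.182, 0 and 0.390 FPKM and CDH1 (E-cadherin) at 0.0534, 0 and 0.153. All 4 of these genes were at 0 in the 3 inverse controls and did not exceed 0.345 FPKM in the standard model, so that they moved with KRT19. The inverse co-culture numbered 3 was the highest for each. EPCAM, CLDN4, OCLN, ELF3 and PROM1 were at 0 in all 3 inverse co-cultures. The part of KPC cells in the level of KRT19 was not tested.

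None of the other leading genes with a difference above 0 passed in the inverse model without a block, and all had an adjusted p of 0.996 for the difference, which none passed with a block. EPHA2, PCDH18 and BRSK1 passed in the inverse model with a block, with adjusted p between 0.0112 and 0.0486. MYH10, a heavy chain of nonmuscle myosin, stood between 45.4 and 66.0 FPKM in all inverse libraries and at 50.7, 50.9 and 53.1 in standard co-cultures, against 85.2, 73.7 and 86.7 in standard controls. Its standard controls were above the other 9 libraries, its difference was 0.63 (95% interval 0.20 to 1.06), and its standard effect had an adjusted p of 0.0633, or 0.0164 and 0.0229 with a block. TTLL1, which adds glutamate chains to tubulin, fell by 0.71 in standard co-culture (adjusted p = 0.0190), and its inverse effect was −0.18 (adjusted p = 0.389). The difference of TTLL1 was 0.52 (95% interval 0.15 to 0.90). EPHA2, a receptor for ephrins, had a difference of 1.15 and PCDH18, a protocadherin, one of 0.88. LSM5, which binds U6 RNA, had a difference of 2.57 with a standard error of 0.92, and BRSK1, a kinase, one of 0.48. GM9803 is a predicted gene, and RSPH3B has a near copy in the genome, so the reads of both are uncertain, and their differences were 1.39 and 1.15.

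**Figure D4:**
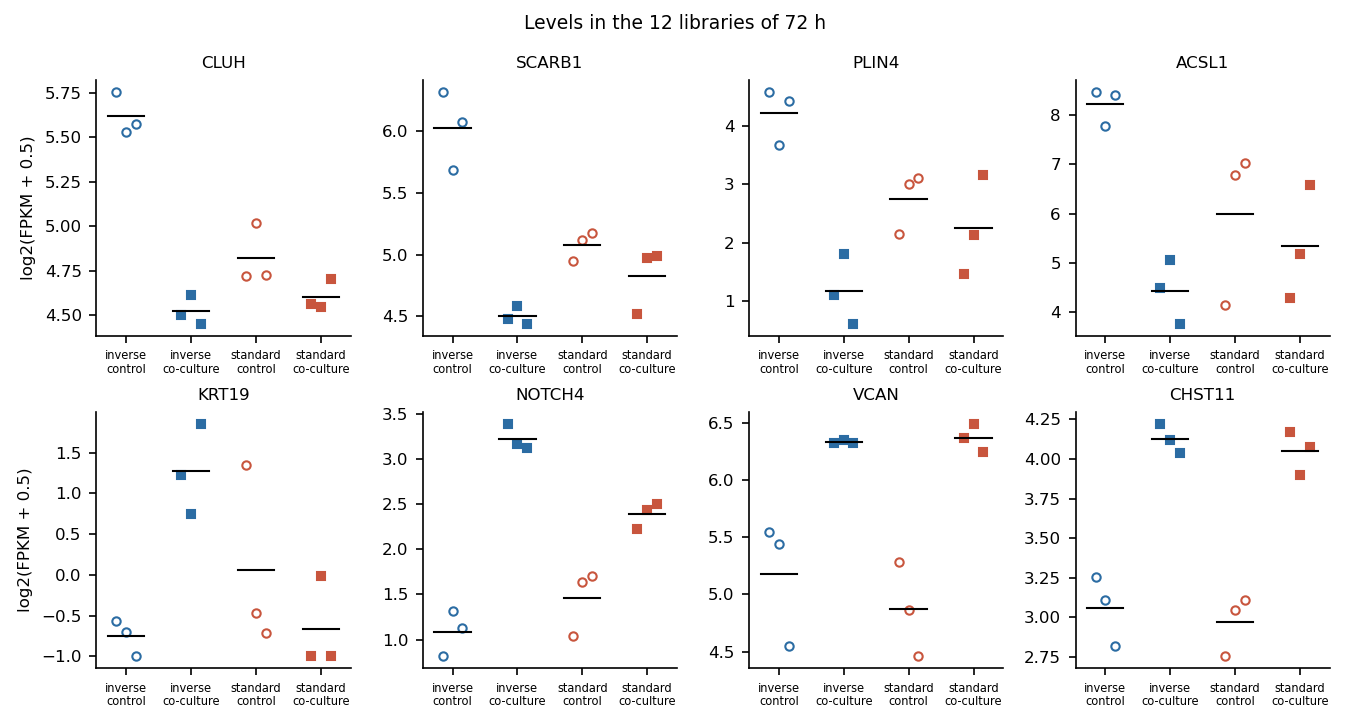
log2(FPKM + 0.5) of 8 genes (vertical axes, each with its own range) in the 12 libraries of 72 h by group, with open circles for controls, filled squares for co-cultures and a bar at the group mean. For CLUH and SCARB1 the inverse controls stand above all other libraries, while for VCAN and CHST11 the co-cultures of both models reach the same level.

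Several lists had differences mostly above 0 without any member past the limit. Of 79 cytosolic ribosomal proteins 75 had a difference above 0 with a median of 0.23, and 5 (6.33%) rose in inverse co-culture, against 1.48% of all genes. With a block 48 rose in both fits, against 4.8% and 5.02% of all genes. RPS20 rose by 0.37 (adjusted p = 0.0436). The median gap between controls was −0.37 and the one between co-cultures −0.14, and the gap between controls was the larger in 75 of 79, or in 73 of 79 without the standard control numbered 1. Ribosomal protein genes have many processed copies, so single members are uncertain. The median was 0.14 without that control and 0.15 without the standard co-culture numbered 3.

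Of 38 genes of amino acid response and synthesis 35 had a difference above 0, with a median of 0.45, and 3 (7.89%) rose in inverse co-culture, against 1.48% of all genes risen, a count that went from 204 to 376 under scaling by median gene ratios. With a block 12 rose in both fits, against 4.8% and 5.02% of all genes. Among the 3 was the transcription factor ATF5 (0.52, adjusted p = 0.0475). TRIB3, a pseudokinase induced by amino acid shortage, stood at 159 FPKM in the inverse co-culture numbered 3 and between 24.3 and 50 in the other 11 libraries. Without that co-culture the median of the list was 0.12, without the one numbered 2 it was 0.73 and without the standard control numbered 1 it was 0.17.

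The direction of other lists turned without the standard control numbered 1. Genes of DNA replication and mitosis had a median difference of 0.47, with 48 of 50 above 0, and none passed in either model without a block. With a block 8 (16%) and 10 (20%) rose in inverse co-culture, against 4.8% and 5.02% of all genes. Without that control the median was −0.25 with 32 of 50 below 0, and without both standard libraries numbered 1 it was 0.20 with 16 of 50 below 0. The median of the contractile genes of myofibroblasts moved from 0.23 to −0.40, that of cytokines and chemokines from −0.26 to 0.43 and that of antigen presentation from −0.27 to 0.38. Without both standard libraries numbered 1 these medians were −0.32, −0.02 and 0.17. With any 1 library left out they ran from −0.40 to 0.60, from −0.79 to 0.43 and from −0.75 to 0.38. Without a block 3 cytokine genes (7.5%) rose in inverse and 1 (2.5%) in standard co-culture, against 1.48% and 0.138% of all genes. In inverse co-culture 1 gene of antigen presentation rose, and no contractile gene passed in either model. In both fits with a block 9 cytokine genes (22.5%) rose and 2 fell in inverse co-culture. In standard co-culture 8 (20%) and 5 (12.5%) rose with a block. Contractile genes then rose in inverse co-culture in 4 (16.7%) and 3 (12.5%) cases. Of all genes 4.8% and 5.02% rose in inverse and 1.06% and 1.05% in standard co-culture with a block. MMP3, a stromelysin named after its values were seen, stood at 0.124 FPKM in that control and at 51.5 and 29.5 in the others, and its difference moved from −2.04 to −0.05 without it.

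**Figure D5:**
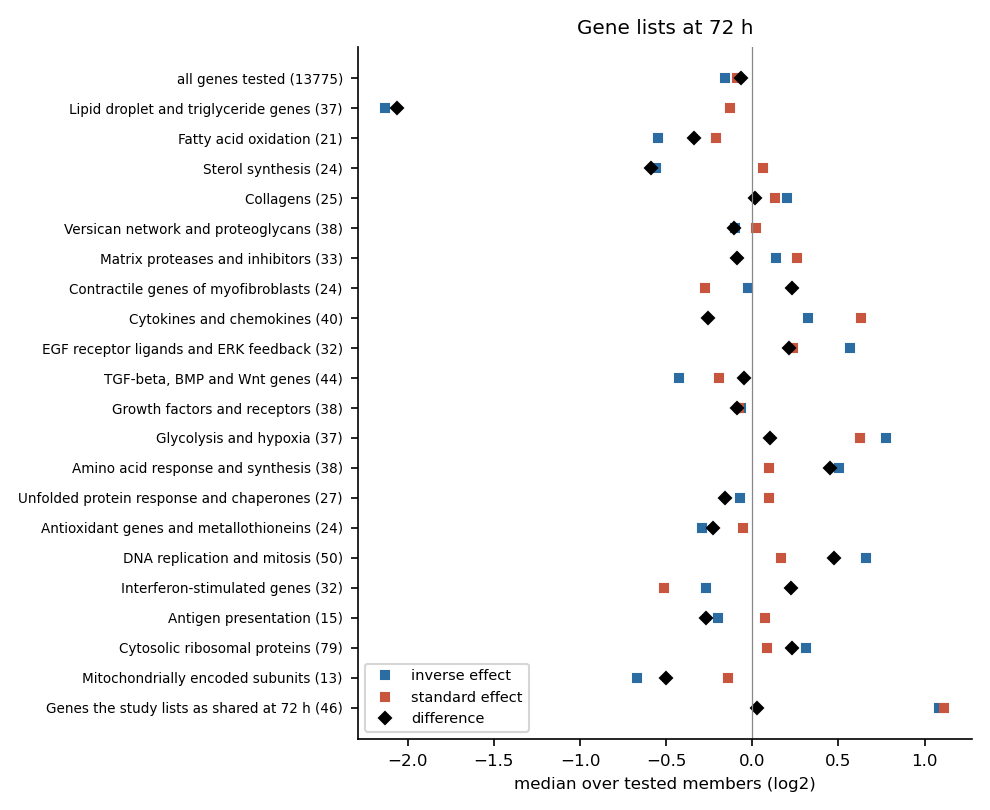
Median over the tested members of 21 gene lists and over all tested genes of the inverse effect (blue squares), the standard effect (red squares) and their difference (black diamonds), in log2 on the horizontal axis, with the number of members tested in brackets. The lipid list lies at −2.06 for the difference, and the list of shared genes has both effects near 1.1 and a difference of 0.03.

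Ligands and receptors by which stroma and tumour cells signal had differences in both directions. Of 38 growth factors and receptors 20 had a difference below 0, with a median of −0.09 that ran from −0.23 to 0.04 with 1 library left out, the last without the standard control numbered 1. HGF, the ligand of MET, stood at 35.0, 25 and 37.2 FPKM in standard co-cultures and at 12.1, 11.8 and 17.5 in standard controls. In the inverse model it stood at 21.1, 29.3 and 21.9 FPKM in co-cultures and at 22.6, 16.9 and 17.9 in controls. The standard groups were apart and the inverse groups overlapped. HGF rose by 1.20 in standard co-culture (adjusted p = 0.0427), its inverse effect was 0.32 (adjusted p = 0.434), and the difference was −0.88 (95% interval −1.60 to −0.16). The study lists HGF as differentially expressed in both models at 72 h.

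MET, its receptor, fell by 1.87 in inverse co-culture (adjusted p = 0.0140), from 4.93, 3.23 and 5.58 FPKM in controls to 0.759, 1.23 and 0.654. In the standard model it stood at 0.636, 3.15 and 3.98 FPKM in controls and at 1.39, 2.82 and 3.06 in co-cultures, where the groups overlapped. The difference of MET was −1.96 (95% interval −3.20 to −0.72, adjusted p = 0.996, or 0.0429 and 0.0299 with a block), or −1.35 without the standard control numbered 1. FGF10, a ligand for epithelial receptors, had a difference of −0.69, and FLT1, a receptor of vascular growth factors, one of 0.90. ANGPTL4, an inhibitor of lipoprotein lipase, had a difference of −1.47, or −0.998 without that control.

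Of 32 EGF receptor ligands and ERK feedback genes 21 had a difference above 0, with a median of 0.21. The median was 0.45 without the standard control numbered 1 and 0.04, with 15 of 32 below 0, without the standard control numbered 2. In inverse co-culture 5 (15.6%) rose and in standard co-culture 1 (3.12%), against 1.48% and 0.138% of all genes. With a block 14 (43.8%) rose in inverse co-culture in both fits, against 4.8% and 5.02% of all genes. MYC rose by 1.21 in inverse co-culture (adjusted p = 0.0127) and had a standard effect of 0.51, with a difference of 0.70 (95% interval −0.09 to 1.48). Of 44 genes of TGF-beta, BMP and Wnt signalling 23 had a difference below 0, and the median of −0.05 turned to 0.02 under scaling by median gene ratios and to 0.00 under quantile normalization, and ran from −0.17 to 0.04 with 1 library left out. WNT11, a secreted Wnt ligand, rose by 1.38 in inverse co-culture (adjusted p = 0.00791) with a difference of 0.85. CD80, a costimulatory ligand for T cells, rose there by 1.81 (adjusted p = 0.00199) with a difference of 0.94.

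Matrix genes had small differences. The 25 collagens had a median difference of 0.02, which was −0.07 under quantile normalization and ran from −0.06 to 0.07 with 1 library left out, and 13 were above 0. COL1A1, the main chain of fibrillar collagen, stood between 4918 and 9856 FPKM in all 12 libraries, with a difference of 0.32 (95% interval −0.37 to 1.01). COL5A3, a chain of collagen V, fell by 1.36 in inverse co-culture (adjusted p = 0.00761), and its difference was −1.04. TNC (tenascin-C) rose by 1.55 in inverse co-culture (adjusted p = 0.0104) and had a standard effect of 0.52, with a difference of 1.03 that became 0.63 without the standard control numbered 1. The 38 genes of the versican network and other proteoglycans had a median difference of −0.11, with 22 below 0, and 7 rose and 2 fell in inverse co-culture while 4 rose in standard co-culture. That median ran from −0.20 to −0.0004 with 1 library left out. Matrix proteases and inhibitors had a median difference of −0.09, which ran from −0.15 to −0.02. MMP13, a collagenase, stayed under 3 FPKM in all libraries, with a difference of −1.99, an inverse effect of −0.46 and a standard effect of 1.53, neither of which passed without a block (adjusted p of the standard effect 0.0161 and 0.0127 with a block).

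The remaining lists had medians between −0.23 and 0.22. Glycolysis and hypoxia genes had a median difference of 0.11, which became −0.08 without the standard control numbered 1 and −0.17 without the standard co-culture numbered 3. In inverse co-culture 8 of 37 (21.6%) rose and 2 (5.41%) fell, against 1.48% and 5.23% of all genes, and none passed in standard co-culture. With a block 20 (54.1%) rose in inverse co-culture in both fits, against 4.8% and 5.02% of all genes. In standard co-culture 7 (18.9%) and 9 (24.3%) rose with a block, against 1.06% and 1.05%. The median effects of the list were 0.78 in the inverse and 0.63 in the standard model. Unfolded protein response and chaperones had a median difference of −0.16, antioxidant genes and metallothioneins one of −0.23 and interferon-stimulated genes one of 0.22. The first of these medians was 0.05 without the inverse co-culture numbered 3. The antioxidant median was −0.08 without that co-culture, −0.11 without the standard control numbered 1 and −0.36 without the standard control numbered 2. The interferon median ran from −0.06 without the standard control numbered 3 to 0.60 without the one numbered 1. CAT (catalase) fell by 0.95 in inverse co-culture (adjusted p = 0.00690), with a difference of −0.52.

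The genes that respond in both models had nearly equal effects. A list of 47 genes shared by the models at 72 h, which the study chose on these libraries and which is therefore no independent evidence, had 46 tested members. Their median effect was 1.08 in inverse and 1.11 in standard co-culture, and the median difference was 0.03. In inverse co-culture 32 (69.6%) rose and 9 (19.6%) fell, against 1.48% and 5.23% of all genes. In standard co-culture 16 (34.8%) rose and 5 (10.9%) fell, against 0.138% and 0.116%. With a block 33 (71.7%) and 35 (76.1%) rose in standard co-culture, against 1.06% and 1.05%. There 9 (19.6%) and 8 (17.4%) fell, against 1.13% and 1.23%. The median absolute gap between models was 0.13 for controls and 0.28 for co-cultures. Without both standard libraries numbered 1 the median difference was 0.25, and without the standard co-culture numbered 3 it was −0.04.

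VCAN (versican), a large chondroitin sulfate proteoglycan, stood at 79.4, 81.1 and 79.4 FPKM in inverse co-cultures and at 82.0, 89.3 and 75.1 in standard co-cultures. Its controls stood at 46.1, 42.9 and 22.9 FPKM in the inverse and at 38.5, 28.7 and 21.5 in the standard model. The co-cultures of the models overlapped, as did the controls, and every co-culture was above every control. VCAN rose by 1.15 in inverse (adjusted p = 0.0140) and by 1.49 in standard co-culture (adjusted p = 0.0161). The difference was −0.34 with a 95% interval from −1.11 to 0.43.

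CHST11, which sulfates chondroitin chains such as those of versican, stood at 18.2, 16.9 and 15.9 FPKM in inverse and at 17.5, 14.4 and 16.4 in standard co-cultures. Its controls stood at 9.07, 8.13 and 6.55 FPKM in the inverse and at 6.25, 7.78 and 8.14 in the standard model. It rose by 1.06 (adjusted p = 0.00209) and by 1.08 (adjusted p = 0.00994), and the difference of −0.01 had a 95% interval from −0.52 to 0.49. Its sign turned under both scalings, at 0.05 and 0.09. SDC4 (syndecan-4), a heparan sulfate proteoglycan of the cell surface, rose by 1.39 and by 1.05 (adjusted p = 0.00104 and 0.0215), with a difference of 0.33 (95% interval −0.24 to 0.90). FN1 (fibronectin) rose by 1.51 in inverse co-culture (adjusted p = 0.00515) and had a standard effect of 1.23 (adjusted p = 0.0715, or 0.0193 and 0.0138 with a block). The difference of FN1 was 0.28 (95% interval −0.54 to 1.11), with −0.02 under quantile normalization.

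Among the 8 shared genes with the smallest p of the difference, UGDH, which makes the sugar of chondroitin and heparan chains, rose in both models, by 0.43 in inverse and by 0.74 in standard co-culture (adjusted p = 0.0353 and 0.00994), with a difference of −0.30 (95% interval −0.65 to 0.05). FRZB, a secreted Wnt antagonist, rose by 1.68 in inverse co-culture (adjusted p = 0.00142), and its standard effect was 1.15 (adjusted p = 0.0572, or 0.0162 and 0.00922 with a block). GAS6, the ligand of AXL, fell by 1.58 in inverse co-culture (adjusted p = 0.00572), and its standard effect was −1.03 (adjusted p = 0.186, or 0.0227 and 0.0576 with a block). The differences were 0.53 for FRZB and −0.55 for GAS6, and both intervals included 0.

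The promoters of VCAN (chr13:89742513-89742762, minus strand) and CHST11 (chr10:82985247-82985496, plus strand) are shown beside those of the lipid genes because both genes rose in both models, and neither held the half-site. Windows of the shared list held it in 6 of 37 (16.2%):
VCAN: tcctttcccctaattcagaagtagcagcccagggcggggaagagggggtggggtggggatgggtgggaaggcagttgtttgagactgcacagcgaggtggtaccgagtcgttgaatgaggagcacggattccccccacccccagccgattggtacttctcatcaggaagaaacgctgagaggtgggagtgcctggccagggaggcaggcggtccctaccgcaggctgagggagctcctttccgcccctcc
CHST11: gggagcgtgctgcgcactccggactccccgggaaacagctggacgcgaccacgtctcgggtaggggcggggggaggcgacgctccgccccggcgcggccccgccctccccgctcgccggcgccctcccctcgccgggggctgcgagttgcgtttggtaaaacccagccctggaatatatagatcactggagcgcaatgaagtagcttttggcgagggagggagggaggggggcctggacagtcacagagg

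The libraries of 24 h enter the errors and p-values of 72 h through the common fit, but not the size of the differences. The same difference was also taken at the earlier time. Its median absolute value over the tested genes was 0.16 there, against 0.21 at 72 h, with no test. Across genes the differences at 72 h and 24 h had a Pearson correlation of 0.09, as a description. Of the 369 leading genes with a difference below 0 at 72 h 291 were below 0 at 24 h too, with a median of −0.19 in place of −1.02. The median over all tested genes was itself below 0 at 24 h, at −0.06. Of the 105 leading genes above 0 at 72 h 61 were above 0 at 24 h, with medians of 0.85 and 0.04. The lipid list had a median difference of −0.38 at 24 h, and sterol synthesis one of 0.13. KRT19 had 2.28, NOTCH4 0.73, SCARB1 −0.10 and CLUH −0.24 at 24 h.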

How the data were processed

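RNA of PSC was sequenced in 24 libraries of 8 groups, and the 12 of 72 h enter the difference. The submitters' notes name HISAT2 2.0.5, featureCounts 1.5.0-p3, DESeq2 1.20.0 and the builds GRCm38 and mm10, and the authors deposited FPKM values of 53801 genes, relative to the total of each library without further scaling. Counting ran with default settings, which disregard strand. Genes were matched to GENCODE M21 (53706 matched).

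Group means of log2(FPKM + 0.5) were fitted over all 24 libraries with limma 3.58.1 in R 4.3.3, with an intensity trend (16 residual degrees of freedom), for genes that exceeded an FPKM of 1 in 3 or more of the 12 libraries. Tests were two-sided with Benjamini-Hochberg adjustment, limit 0.05. Fold changes on this scale understate low genes. Replicates are called biological without the isolation behind each, so p-values measure the spread between these libraries.

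Whole fragments were recovered from 95.0% to 96.0% of low FPKM values (within 0.02 fragments) for voom. Fits were checked on simulated data. Named are, in each direction, 10 protein-coding genes by size past the limit or else by smallest p, with a mean FPKM above 2 in a group and 3 same-numbered inverse effects beyond all standard ones, up to 5 genes a list by p, and up to 8 shared genes besides VCAN, CHST11, SDC4 and FN1. Some genes under this rule are not reported here. The difference, genes and lists were chosen with earlier results of these data known. Deviations of same-numbered libraries from their group means correlated at 0.557, 0.441 and 0.421 in the standard model, over the limit of 0.1 for pairing, and at 0.0985, −0.0915 and 0.107 in the inverse model, where the limit was not met. Alternatives were other pseudocounts, filters, scalings, libraries, weights, limits and a replicate block. Python 3.11.15 with pandas 2.3.3 and matplotlib 3.10.9 made tables and plots.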

Additional observations from a re-analysis of the deposited data

How the results depend on the processing

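Without a replicate block the count of genes past the limit for the difference was 0 under 2 pseudocounts, a mean FPKM above 5, both scalings, no trend, the 72 h libraries alone, weights, voom, both other limits and each library left out, where the smallest adjusted p of limma ran from 0.0640 (without the standard control numbered 2) to 0.961 (without the standard control numbered 1). It was 5 without a filter, namely CLUH and PBLD1, GM44171, GM14569 and GM39244 with mean FPKM under 0.07.

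Replicate numbers paired the libraries of the standard model, where each library correlated best with its own number, and not those of the inverse model. With a replicate block in each model the counts were 16 for the difference (all below 0, ACSL1, GPAM, SCARB1, MET and CLUH among them), 2696 for the inverse and 302 for the standard effect. A block in the standard model alone, chosen after seeing the data, gave 17, 2804 and 315, with PLIN4 and AQP7 added among the named genes. Besides these genes, DGAT2 and PLIN1 of the lipid list passed in both fits, and no other named difference passed with a block.

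With the libraries of 72 h alone, 574 genes passed for the inverse and 9 for the standard effect. Weights gave 2033 and 14, a limit of 0.01 gave 184 and 9, and a limit of 0.1 gave 1865 and 72. Leaving out 1 library gave 217 (inverse control numbered 3) to 1236 (standard control numbered 1) for the inverse effect. Within that range were 304 and 573 without the inverse controls numbered 1 and 2, and 414 and 310 without the inverse co-cultures numbered 1 and 3. For the standard effect it gave 5 (standard co-culture numbered 2) to 55 (standard co-culture numbered 3), with 11 without the standard co-culture numbered 1, 12 and 17 without the standard controls numbered 1 and 3, 19 without the inverse co-culture numbered 1, 19 and 22 without the inverse controls numbered 2 and 3. Without both standard libraries numbered 1 (chosen after seeing the data) it was 4.

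Of 1827 values of 74 named genes 1804 kept their direction and side of the limit and 13 passed it, and 10 changed sign. The sign changes were FN1 (−0.0218 under quantile normalization) and CHST11, at 0.0507 under median gene ratios, 0.0902 under quantile normalization, 0.16 without both standard libraries numbered 1, and −0.14 to 0.10 with 1 library left out. Of 525 list medians 505 moved by less than the spread between replicates. That spread is the standard deviation of the same-numbered effects of a list, although replicate numbers did not pair the inverse libraries. A median could change sign within it, as that of the contractile genes did without the standard control numbered 1 (0.23 to −0.40). With 3 libraries a group the median 95% half-width of a difference was 0.67 (log2).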
